A study of Mus musculus with 8 samples.

Results

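The 10 genes described here, Atf3, Atf4, Ddit3, Trib3, Asns, Hspa5, Hsp90b1, Xbp1, Herpud1 and Creb3l3, belong to the unfolded protein response and the integrated stress response. They were taken by symbol from the 32285 genes listed for each library, where they carry 11 gene identifiers because Ddit3 is listed under 2. Their counts were followed in the liver nuclei of 8 male DIAMOND mice, a cross labelled 129A1/SvIm and C57BL/6J that develops fatty liver disease and liver tumours when fed fat and sugar. All 8 mice received a Western diet, meaning high-fat food with fructose and glucose in the water. The WD tumour group (n = 3) stayed on it and had hepatocellular carcinoma (HCC), the most common primary liver cancer. The RD tumour group (n = 2) was returned to standard chow after 36 weeks and had HCC. The RD no tumour group (n = 3) had the same diet reversal, and no HCC was detected. By the series text, feeding began when the mice were 2 months old and lasted 48 weeks in the first group, whereas the labels end the study at 48 weeks of age, so the age at sampling is uncertain. The labels do not say whether the frozen piece of a liver held tumour. No group without Western diet was analysed here, and each mouse gave 1 library.

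The endoplasmic reticulum (ER) folds secreted and membrane proteins, and hepatocytes secrete most plasma proteins. When unfolded proteins build up there, the sensors ATF6, IRE1 and PERK act through ATF6 itself, through spliced XBP1 and through translation of ATF4. The first branches induce chaperones such as HSPA5 and HSP90B1 and degradation factors such as HERPUD1. Kinases that sense lack of amino acids, haem or viral RNA also phosphorylate eIF2 alpha and so share the ATF4 branch, with DDIT3, ATF3, TRIB3 and ASNS among its known targets. Much of this control acts on splicing, translation or protein cleavage, which counts of gene transcripts do not measure.

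The promoters were read first, because the known elements of the response place the genes in its branches. RefSeq windows (build GRCm38.p6) were found for all 10 genes, and the 250 bases before each start were searched on both strands. Of the 32851 promoters in the same table, 3.45% held the C/EBP-ATF response element CARE (TGATGNAA), and 3 of the 10 genes did: Asns, Atf3 and Herpud1. The ER stress response element ERSE, a CCAAT and a CCACG separated by 9 bases, was in 0.113% of all promoters and in those of Hspa5 and Hsp90b1. The shorter ERSE-II was in 0.0304% of promoters and in that of Herpud1. The elements UPRE (TGACGTGG, 0.563% of promoters) and CRE (TGACGTCA, 1.55%) had no exact match in the 10. CCACG alone, which ERSE and ERSE-II contain, was in 28.3% of all promoters and in 6 of the 10. The sites are shown on the strand of the gene with the element in capitals, and those of Asns and Hspa5 lie inside annotated exons of the reference annotation (GENCODE M21).
Asns CARE, chr6:7693214-7693243, minus strand: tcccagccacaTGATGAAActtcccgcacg
Atf3 CARE read from the other strand, chr1:191183425-191183454, minus strand: ccttctcgcacTTGCATCAccaagtccgcg
Herpud1 CARE read from the other strand, chr8:94386306-94386335, plus strand: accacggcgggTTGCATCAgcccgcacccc
Herpud1 ERSE-II, chr8:94386368-94386396, plus strand: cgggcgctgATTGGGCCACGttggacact
Hspa5 ERSE, chr2:34772020-34772048, plus strand: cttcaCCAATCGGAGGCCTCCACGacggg
Hsp90b1 ERSE, chr10:86705633-86705661, minus strand: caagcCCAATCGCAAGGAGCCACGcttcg
Hsp90b1 ERSE read from the other strand, chr10:86705528-86705556, minus strand: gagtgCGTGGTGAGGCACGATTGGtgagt
A match says only that these letters are in the window.

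Libraries held 17948627 to 34363108 unique molecular identifiers (UMIs, 1 per captured RNA molecule), and 6048 to 20000 nuclei per mouse had 300 or more detected genes and were used. Levels are given as CPM, the UMIs of a gene per 1000000 UMIs of the same nuclei. Pairs of libraries shared 8 to 65 barcodes. RD tumour 1 stood apart: it had exactly 20000 barcodes, and across genes, its correlation with each other library was 0.798 to 0.883, against at least 0.919 among the other 7. Of its nuclei, 39.1% met a neutrophil gate, and 5 macrophage genes not used for gating summed to 2281 CPM in its hepatocyte-gated nuclei, against 67.5 to 795 CPM in the other mice. Endothelial genes not used for gating summed to 171 CPM in its endothelial gate and 137 CPM in its hepatocyte gate. Endothelial gates of the other mice had 538 to 1350 CPM. Such stellate/fibroblast genes were at 153 CPM in its stellate/fibroblast gate, against 1021 to 1683 CPM elsewhere. The gates of RD tumour 1 were thus poorly separated. RD tumour 2 alone had nuclei gated as pancreatic acinar cells (810 nuclei, 7.81%). Median mitochondrial shares were 7.91% and 7.51% in WD tumour 1 and 3 and 1.30% to 3.28% elsewhere. Every contrast with the RD tumour group therefore rests on 2 mice that differ in make-up.

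No gene of the 10 passed an adjusted p of 0.05 in any of the 3 group contrasts (edgeR quasi-likelihood test, Benjamini-Hochberg adjustment over 19087 genes). The same held in the hepatocyte, endothelial, stellate/fibroblast and macrophage gates. The background was the same: 0% of all genes passed in each of these 15 comparisons. At an unadjusted p under 0.05, the whole libraries gave 2.75% of genes for WD tumour minus RD no tumour, 6.7% for RD tumour minus RD no tumour and 7.56% for WD tumour minus RD tumour. Among the 10 genes the corresponding counts were 1 (Asns), 2 (Atf3 and Atf4) and 2 (Asns and Atf4). The median log2 difference of the 10 genes was -0.19, -0.16 and -0.09 in the same order, against -0.01, 0.003 and -0.01 over all genes tested. The contrasts share samples, so their values are not independent of one another.

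**Figure D1:**
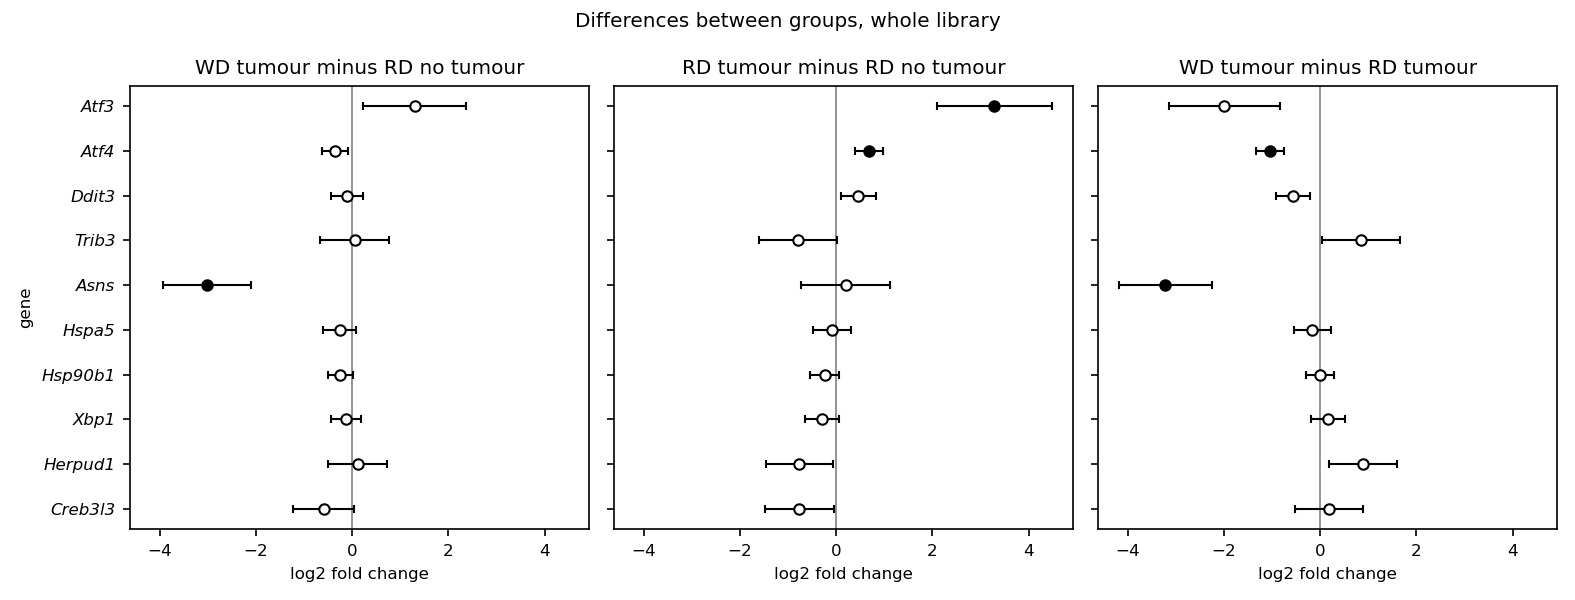
Log2 fold change of each gene (x axis) between groups of whole libraries, with bars for the standard error. Filled points have an unadjusted p under 0.05. Asns stands near -3 in both contrasts of WD tumour and near 0 between the reversal groups, while the points for Hspa5, Hsp90b1 and Xbp1 lie between -0.29 and 0.16.

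Asns, which encodes the enzyme that makes asparagine from aspartate and glutamine and is a classical ATF4 target (CARE site above; gene at chr6:7675169-7693254, minus strand), was the only one of the 10 genes with all WD tumour mice below all reversal mice. The share of all genes in this order was not counted. It can be no more than 3.8%, the share with WD tumour below RD no tumour without overlap. The Asns level was 0.223, 3.20 and 0.488 CPM in WD tumour 1, 2 and 3. It was 15.5 and 8.30 CPM in RD tumour 1 and 2, and 6.69, 8.78 and 14.1 CPM in RD no tumour 1, 2 and 3. The gap lay between WD tumour 2 and RD no tumour 1. The counts behind these levels were 4, 72 and 12 UMIs in the WD tumour mice and 195 to 532 in the others. The exact Clopper-Pearson 95% intervals of the WD tumour levels, which cover counting error only, were 0.0607 to 0.571, 2.50 to 4.03 and 0.252 to 0.852 CPM. The nearest reversal mouse, RD no tumour 1, had an interval of 5.78 to 7.70 CPM. WD tumour 1 and 3, with the least Asns, also had the highest median mitochondrial shares (7.91% and 7.51%, against 2.77% in WD tumour 2). This link was not tested.

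The log2 fold change of Asns was -3.02 ± 0.91 (SE) against RD no tumour, an 8.09-fold lower level (edgeR adjusted p = 1.00, unadjusted rank 130 of 19087). Against RD tumour it was -3.21 ± 0.96 (adjusted p = 0.590, rank 223). Groups that did not overlap in this direction were found for 3.8% of all genes in the first contrast and for 11% in the second. Between the reversal groups the log2 difference was 0.20 ± 0.93. A contrast of WD tumour with the mean of both reversal groups, chosen after the values were seen, gave -3.12 ± 0.88 (edgeR adjusted p = 0.947). Asns stood at rank 129 by p of 19087 genes in it, where 0% of genes passed adjustment and 4.28% had an unadjusted p under 0.05. Without WD tumour 2, the highest of its group, the same comparison with RD no tumour gave -4.79, and it was between -2.56 and that value when any 1 mouse was left out. In summed libraries, fewer cells of a type and less RNA per cell cannot be told apart, so the gates were read next.

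In the hepatocyte gate (at least 3 hepatocyte markers and fewer than 2 of any other class), Asns was at 0.433, 3.71 and 0.372 CPM in WD tumour 1, 2 and 3. The reversal mice had 7.70 to 15.1 CPM. The log2 fold change was -2.82 ± 0.87 relative to RD no tumour (edgeR adjusted p = 1.00) and -2.76 ± 0.93 relative to RD tumour (adjusted p = 0.545), both at unadjusted p under 0.05. Unadjusted p under 0.05 was reached by 3.68% and 8.65% of genes here, and lower groups without overlap were found for 5.44% and 16.7%. In the contrast of the reversal groups, 12.6% of genes reached that p in this gate, and of the 10 genes only Atf3 did.

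In the endothelial and macrophage gates the WD tumour mice were also below the reversal mice for Asns, at lower depth, and in the stellate/fibroblast gate they overlapped. No share of all genes without overlap is given for these gates. Hepatocyte genes not used for gating were lower than in the hepatocyte gate by a median log2 of only 0.58 (endothelial) and 1.06 (macrophage). The gates are thus not separate readings, and the part of hepatocyte RNA in their Asns level was not tested. Endothelial-gated nuclei had 1.41 and 0.818 CPM in WD tumour 2 and 3 and no UMI in WD tumour 1, which allows up to 1.43 CPM (3 counts). The reversal mice had 6.09 to 16.5 CPM there. The fitted log2 fold changes were -3.83 ± 0.80 against RD no tumour (rank 5 of 13273 genes, edgeR adjusted p = 1.00) and -3.80 ± 0.86 against RD tumour (adjusted p = 0.486). Background shares at unadjusted p under 0.05 were 2.22% and 10.2%. DESeq2 called Asns in this gate, with an adjusted p of 0.0317 and 0.0270 in the same contrasts. It called 9 and 42 of the 13273 genes in them. Macrophage-gated nuclei gave -2.28 ± 0.86 (edgeR adjusted p = 1.00, background 2.23%) and -2.77 ± 0.93 (adjusted p = 0.590, background 8.26%), with 3.42 and 0.664 CPM in WD tumour 2 and 3 and no UMI in WD tumour 1, which allows up to 2.67 CPM. In this gate RD no tumour 1, at 3.60 CPM, came close to WD tumour 2. Stellate- and fibroblast-gated nuclei gave -3.06 ± 1.22 (edgeR adjusted p = 1.00, background 2.82%) and -3.49 ± 1.34 (adjusted p = 0.646, background 7.41%). There WD tumour and RD no tumour overlapped, since WD tumour 2 had 2.07 CPM from 3 UMIs and RD no tumour 1 had 1.25 CPM from 2.

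**Figure D2:**
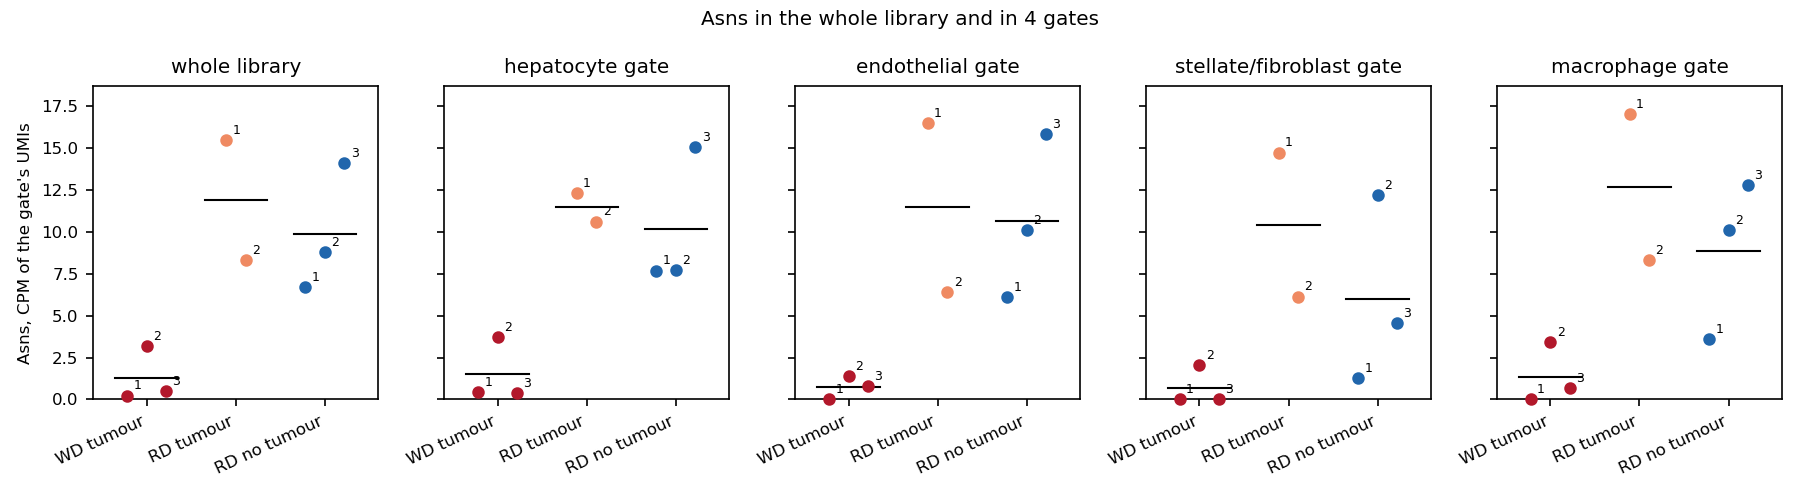
Asns level (CPM of the UMIs in the gate, y axis) in each mouse, for the whole library and 4 gates; points are mice with their replicate number, and lines are group means. The 3 WD tumour mice lie at 3.71 CPM or less in every panel, and WD tumour 2 is the highest of them.

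Atf4, the transcription factor of the integrated stress response (chr15:80255184-80257541, plus strand), was highest in the RD tumour mice, at 139 and 84.1 CPM. RD no tumour 1, 2 and 3 had 71.0, 71.8 and 58.4 CPM, and WD tumour 1, 2 and 3 had 44.8, 55.1 and 61.9 CPM. Both RD tumour mice were above the other 6, while WD tumour 3 lay within the range of RD no tumour. The log2 fold change was 0.68 ± 0.29 for RD tumour minus RD no tumour (edgeR adjusted p = 0.612) and -1.04 ± 0.29 for WD tumour minus RD tumour (adjusted p = 0.590). Groups without overlap in the direction of Atf4 were found for 10.8% of all genes in the first of these contrasts and for 11% in the second. The share of all genes with both RD tumour mice above the other 6 was not counted. In the hepatocyte gate the Atf4 differences were smaller, 0.30 ± 0.25 (edgeR adjusted p = 0.548) and -0.69 ± 0.25 (adjusted p = 0.545). For RD tumour minus RD no tumour, the endothelial, stellate/fibroblast and macrophage gates gave 0.76 ± 0.29, 0.839 ± 0.395 and 0.869 ± 0.296. For WD tumour minus RD tumour they gave -1.103 ± 0.291, -1.121 ± 0.395 and -1.001 ± 0.296, and none of these passed adjustment. Because the gates of RD tumour 1 were poorly separated, these values are not separate readings of cell types. Without RD tumour 1 the whole-library values were 0.21 and -0.57, and without RD tumour 2 they were 1.02 and -1.38. In each of these fits 1 mouse stood for the RD tumour group and was assumed to vary like the others. Atf4 and Asns were both lowest in WD tumour 1.

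Ddit3 encodes CHOP, a factor of prolonged ER stress (chr10:127290774-127296288, plus strand). Its level was 19.5 and 29.5 CPM in RD tumour, 25.2, 15.5 and 10.7 CPM in RD no tumour and 12.9, 16.5 and 19.2 CPM in WD tumour. The WD tumour mice were all below the RD tumour mice (log2 fold change -0.57 ± 0.36), as for 11% of all genes, while RD no tumour ranged from below the first to within the second. In the hepatocyte gate the WD tumour and RD tumour mice overlapped for Ddit3 (-0.41 ± 0.46). The second identifier of Ddit3 (chr10:127290829-127293753) overlaps the first and had 0 UMIs in all 8 mice, and only the first is used here. Trib3, a pseudokinase induced by ATF4 and DDIT3 that dampens their action (chr2:152337422-152344032, minus strand), had 820 UMIs in all. RD no tumour 3 had the highest level, 8.60 CPM, beside 2.06 and 1.46 CPM in the other mice of its group. WD tumour mice had 4.01, 3.02 and 6.34 CPM and RD tumour mice 2.27 and 2.79 CPM, so those groups did not overlap (log2 fold change 0.85 ± 0.82). Over all genes, 10.4% had their WD tumour mice above the RD tumour mice without overlap. Ddit3 and Trib3 did not share the order of Asns: both had RD no tumour 3 at an extreme, at the bottom for Ddit3 and at the top for Trib3.

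Atf3, an early-response factor of the same family (chr1:191170296-191218039, minus strand), varied most among mice apart from Asns. RD tumour 1 had 58.3 CPM and RD tumour 2 had 3.78 CPM. WD tumour 1, 2 and 3 had 4.18, 15.6 and 4.60 CPM, and RD no tumour 1, 2 and 3 had 7.03, 1.72 and 1.02 CPM. The order crossed the groups, with RD tumour 1, WD tumour 2 and RD no tumour 1 on top. The log2 fold change of RD tumour minus RD no tumour was 3.29 ± 1.20 (edgeR adjusted p = 0.612), and it was 0.15 without RD tumour 1 and 4.18 (adjusted p = 0.0318) without RD tumour 2. DESeq2 called 515 of 16501 genes in the hepatocyte gate for this contrast, with Atf3 among them (log2 fold change 3.72, adjusted p = 0.0255). In that gate RD tumour 1 had 56.8 CPM of Atf3 and RD tumour 2 had 3.95 CPM. The same 3 mice led their groups in the 13 macrophage markers, whose summed levels were 3161 CPM in RD tumour 1, 1440 CPM in WD tumour 2, 1310 CPM in RD no tumour 1 and 444 to 774 CPM in the other 5 mice. Neutrophil markers (12 genes) summed to 3157, 239 and 959 CPM in those 3 mice and to 57.5 to 142 CPM in the others. None of these markers was at 0 in any library, and their part in the Atf3 level was not tested.

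The levels of the ER chaperones overlapped between groups. Hspa5 encodes BiP, the main ER chaperone and the brake on the sensors (chr2:34771970-34777547, plus strand). Its level was 122, 193 and 164 CPM in WD tumour 1, 2 and 3. RD tumour had 214 and 145 CPM, and RD no tumour had 277, 123 and 158 CPM. The ranges overlapped in every contrast, and the log2 fold changes were -0.26 ± 0.35, -0.09 ± 0.39 and -0.17 ± 0.38 for WD tumour minus RD no tumour, RD tumour minus RD no tumour and WD tumour minus RD tumour. Hsp90b1, the ER member of the HSP90 family (chr10:86690209-86705509, minus strand), had the narrowest range of the 10 genes, from 275 to 419 CPM, a ratio of 1.52 between the highest and the lowest mouse. Its annotated span overlaps other annotated genes, and the strand setting of the counting is not given in the sources used here. The log2 fold change of Hsp90b1 was within 0.24 of 0 in each contrast, with a standard error of 0.26 to 0.30. Xbp1, whose messenger RNA is spliced by IRE1 to give the active factor (chr11:5520659-5525893, plus strand), ranged from 53.5 to 119 CPM. These counts do not separate its spliced and unspliced forms. RD no tumour held both the highest Xbp1 level (RD no tumour 1) and the lowest (RD no tumour 2).

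Herpud1 encodes an ER membrane protein of the degradation pathway (chr8:94386438-94395377, plus strand), and its promoter held both a CARE and an ERSE-II site. It ranged from 94.6 to 422 CPM. WD tumour 1 and 3 had 413 and 422 CPM, the highest values, and WD tumour 2 of the same group had the lowest. RD no tumour 2 and 3 had 359 and 329 CPM, and RD no tumour 1 had 142 CPM. RD tumour 1 and 2 had 143 and 205 CPM. In each of the 3 groups the mouse with the lowest Herpud1 was the mouse with the highest Hspa5, namely WD tumour 2, RD no tumour 1 and RD tumour 1. The hepatocyte gate had the same arrangement, with Herpud1 at 109, 173 and 138 CPM and Hspa5 at 233, 293 and 217 CPM in those 3 mice. They are also the 3 with the most macrophage and neutrophil marker RNA, and this link was not tested. Herpud1 overlaps the annotated antisense gene Gm15890.

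**Figure D3:**
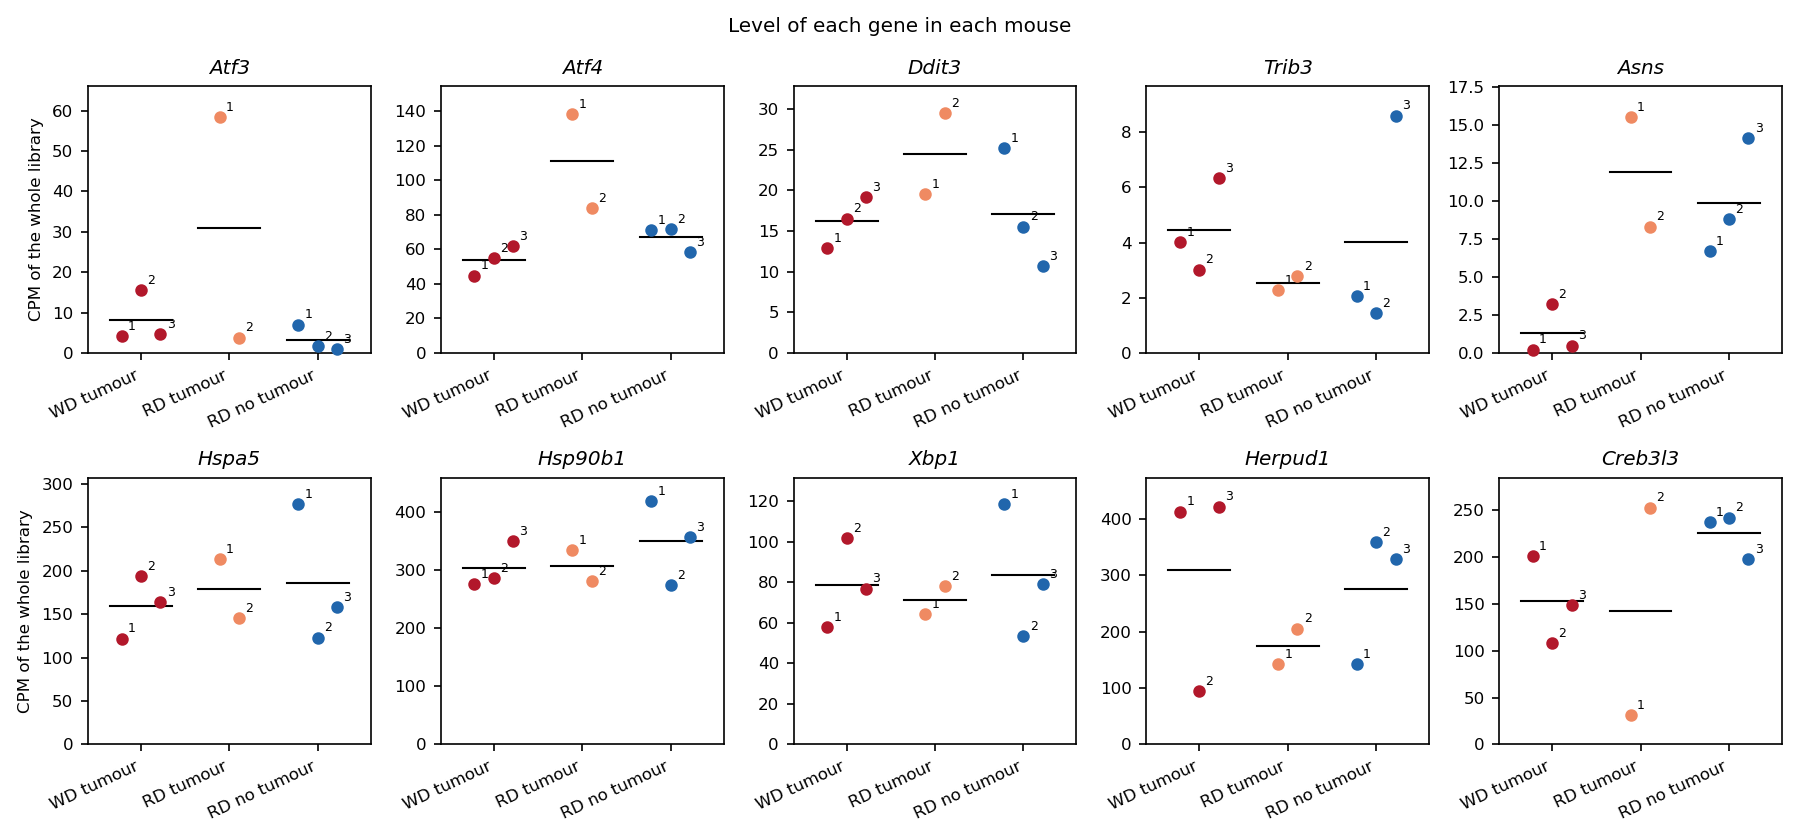
Level of each gene (CPM of the whole library, y axis from 0) by group; points are mice with their replicate number, and lines are group means. The WD tumour mice are lowest for Asns, RD tumour 1 stands alone for Atf3 and Creb3l3, and WD tumour 2, RD no tumour 1 and RD tumour 1 are low for Herpud1 and high for Hspa5.

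Creb3l3 encodes CREBH, an ER-bound factor of hepatocytes that is cleaved under stress and fasting and drives lipid and acute-phase genes (chr10:81084324-81098874, minus strand). Its level was 31.7 CPM in RD tumour 1 and 253 CPM in RD tumour 2, the lowest and the highest of all mice. RD no tumour 1, 2 and 3 had 237, 242 and 197 CPM, and WD tumour 1, 2 and 3 had 201, 108 and 149 CPM. No contrast separated the groups. The log2 fold change of RD tumour minus RD no tumour was -0.77 ± 0.72 with both mice, 0.045 without RD tumour 1 and -2.86 without RD tumour 2. With either mouse left out, only 1 stood for the RD tumour group and was assumed to vary like the others. In the hepatocyte-gated nuclei of RD tumour 1, Creb3l3 was at 34.5 CPM, and 5 hepatocyte genes not used for gating summed to 706 CPM, against 3257 to 6909 CPM in the other 7 mice. The hepatocyte gate of RD tumour 1 thus differed from the rest in its own markers.

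**Figure D4:**
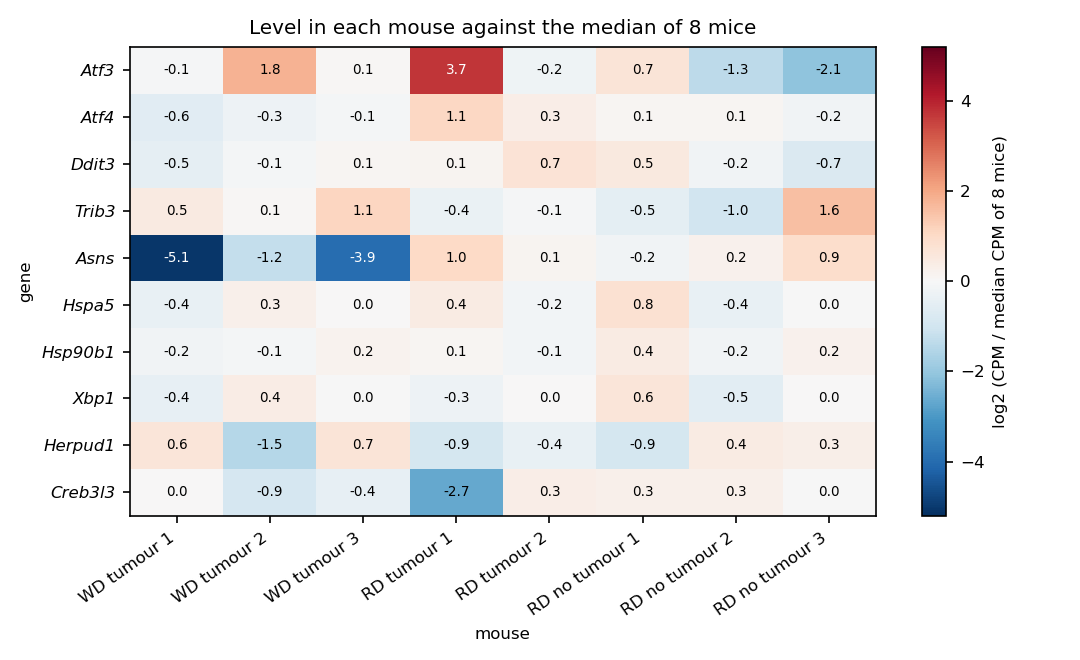
Log2 ratio of each gene's whole-library level to its median over the 8 mice (colour and printed value) for every mouse. Asns has its lowest values in WD tumour 1 and 3, and RD tumour 1 departs from the others in Atf3 and Creb3l3.

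The 10 genes were also compared between cell classes within mice, each gate minus the hepatocyte gate with the mouse as a block (edgeR over 13250 genes). Trib3 was too low to be tested. Hepatocyte RNA was present in every gate: the 5 hepatocyte genes not used for gating were lower than in the hepatocyte gate by a median of only 0.35 (cholangiocyte gate) to 1.33 (B gate) on the log2 scale. A ratio between gates is therefore a compressed one. At an adjusted p under 0.05, Creb3l3 was lower than in the hepatocyte gate in 6 of the 7 gates tested. Its level was 110 ± 45.8 CPM in stellate/fibroblast gates and 213 ± 94.0 CPM in hepatocyte gates (SD, n = 8 mice, lower in 8 of 8; log2 difference -0.997 ± 0.113, edgeR adjusted p = 6.7e-11). Herpud1 was lower in 5 gates, among them the B gate (169 ± 68.0 against 312 ± 149 CPM, SD, n = 7 mice, lower in 7 of 7; -1.05 ± 0.12, edgeR adjusted p = 4.9e-10). The hepatocyte genes named above were lower by a median of 1.27 and 1.33 in those gates.

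Atf3 was the only one of the 10 genes that was higher than in the hepatocyte gate at an adjusted p under 0.05 in any gate. It was at 20.6 ± 22.4 CPM in macrophage gates against 10.7 ± 18.9 CPM in hepatocyte gates (SD, n = 8 mice) and higher in 8 of 8 mice, with a log2 difference of 1.36 ± 0.22 (edgeR adjusted p = 6.3e-07). Outside RD tumour 1 its macrophage-gate levels ran from 2.84 CPM (RD no tumour 3) to 28.3 CPM (WD tumour 2), and all 3 WD tumour mice, at 11.6, 28.3 and 18.6 CPM, were above RD no tumour 2 and 3 but not all above RD no tumour 1 (15.7 CPM). Xbp1 was lower in the T/NK gate (56.0 ± 14.4 against 82.7 ± 24.4 CPM, SD, n = 7 mice, lower in 6 of 7; -0.77 ± 0.14, edgeR adjusted p = 1.5e-05) and in the cholangiocyte gate (-0.36 ± 0.12). Hspa5 was lower in the cholangiocyte gate (-0.48 ± 0.12). Atf4 was lower in 4 gates by 0.32 to 0.55, Hsp90b1 in 5 by 0.23 to 0.45, and Ddit3 and Asns in the stellate/fibroblast gate by 0.45 and 0.71. None of the 10 genes passed in the neutrophil gate, where RD tumour 1 holds most nuclei.

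These counts stand beside a wide background of differences between gates. Genes higher and lower than in the hepatocyte gate were 15.6% and 20% of all genes in the endothelial gate, where 0 and 4 of the 9 tested genes passed. The shares were 20% and 27% in the stellate/fibroblast gate (0 and 6 genes), 22.3% and 29.6% in the macrophage gate (1 and 4), 14.5% and 23.4% in the T/NK gate (0 and 4) and 11.6% and 22.7% in the B gate (0 and 3). They were 7.18% and 9.85% in the cholangiocyte gate (0 and 4) and 3.79% and 2.11% in the neutrophil gate (0 and 0). Gates contained 35799 hepatocyte, 7344 endothelial, 5085 stellate/fibroblast, 5867 macrophage, 980 T/NK, 527 B, 1148 cholangiocyte and 9368 neutrophil nuclei over the 8 mice.

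**Figure D5:**
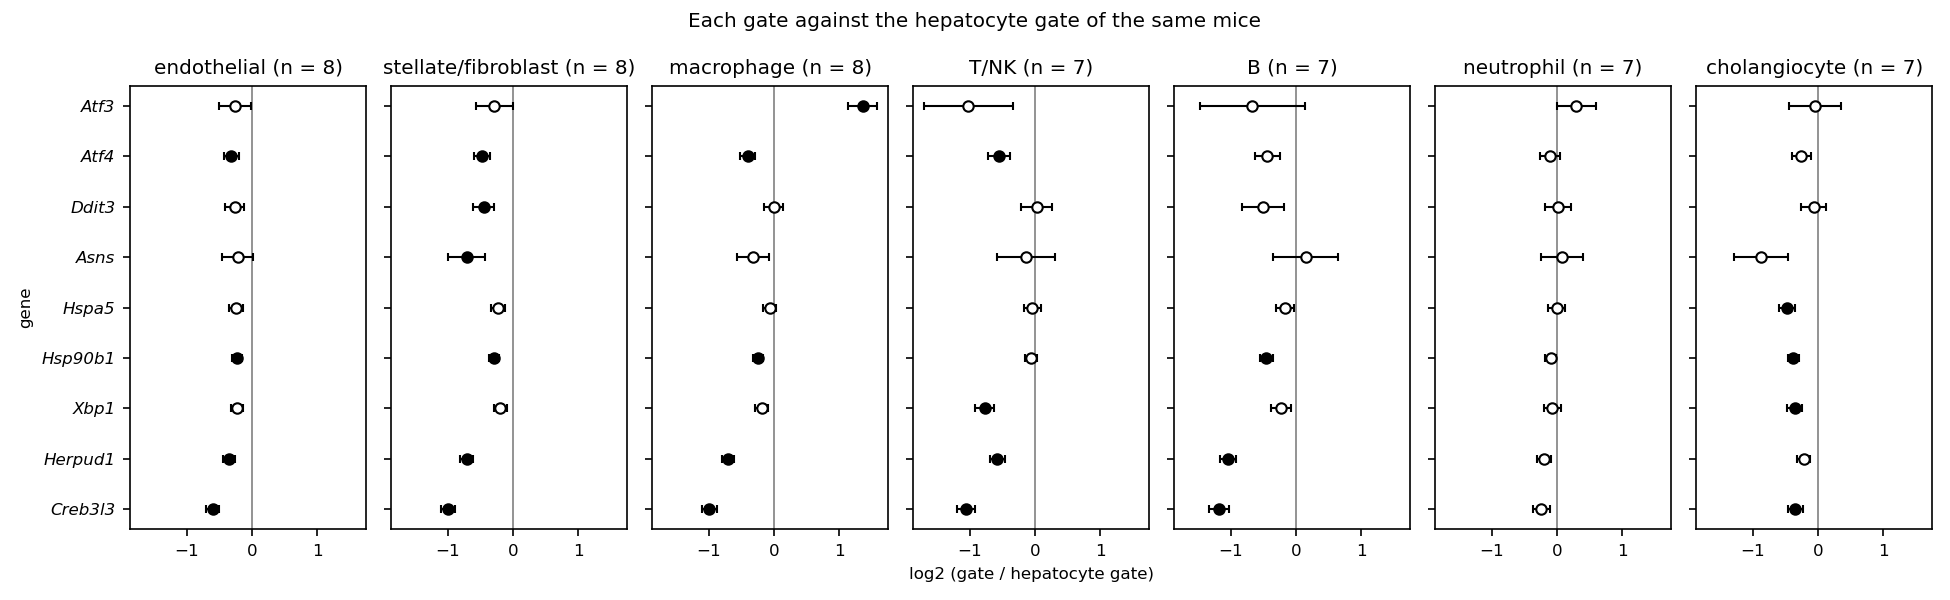
Log2 ratio of each gene between a gate and the hepatocyte gate of the same mice (x axis), with bars for the standard error and n the number of mice. Filled points passed an adjusted p of 0.05: Creb3l3 and Herpud1 are to the left in most gates, and Atf3 is to the right in the macrophage gate.

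The other genes of the pathway were read from lists of sensors, chaperones, degradation factors and targets. None passed adjustment in the whole library or the hepatocyte gate, so the following are values at unadjusted p under 0.05. Of the 9 sensors and kinases, which include Ern1, Eif2ak3, Atf6 and Eif2ak4, 0 reached that level in any contrast of the whole library or the hepatocyte gate. For RD tumour minus RD no tumour, 2 of the 9 were higher in the stellate/fibroblast gate (7.4% of all genes in either direction) and 1 in the endothelial gate (9.89%). For WD tumour minus RD tumour, 2 were lower in the stellate/fibroblast gate (7.41%). Of the 16 ER chaperones and folding enzymes, 0 did in the whole library, and 2 did in the hepatocyte gate for RD tumour minus RD no tumour: Pdia4 (log2 fold change -0.80 ± 0.33) and Manf (-0.70 ± 0.29). That share of the 16 is near the 12.6% of all genes in this gate and contrast. Manf, a secreted ER stress factor, was at 98.9 and 113 CPM in the hepatocyte gates of RD tumour and at 170, 113 and 164 CPM in those of RD no tumour. Of the 11 degradation and export genes 1 did in the whole library (6.7% of all genes), Derl3, at 7.57 and 2.31 CPM in RD tumour against 2.30, 0.441 and 0.559 CPM in RD no tumour (2.17 ± 0.81).

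The list of 30 ATF4 targets leaves out Asns. In WD tumour minus RD no tumour, 1 of the 30 reached unadjusted p under 0.05, Ddit4, an inhibitor of mTORC1. It was at 14.4, 8.58 and 13.6 CPM in WD tumour and 25.7, 36.1 and 35.9 CPM in RD no tumour (log2 fold change -1.46 ± 0.56, edgeR adjusted p = 1.00). The median of the list was -0.13, against -0.01 over all genes, and 2.75% of all genes reached that p. In WD tumour minus RD tumour 5 of 30 did, where 7.56% of all genes did, among them Cth (-1.62 ± 0.63), an enzyme of cysteine synthesis at 832 and 348 CPM in RD tumour and 180, 75.9 and 317 CPM in WD tumour, and, in the other direction, Chac1 (1.58 ± 0.62) and Vldlr (2.16 ± 0.90). In RD tumour minus RD no tumour 2 of 30 did, a share near the 6.7% of all genes: Psat1 (3.11 ± 1.26) and Gars (1.06 ± 0.42). Both were high in RD tumour 1 only, and Psat1 was at 10.3 CPM there and at 0.367 CPM in RD tumour 2.

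Among 9 relatives and targets of CREBH, 1 reached unadjusted p under 0.05 in the whole library (2.75% of all genes in that contrast), the apolipoprotein gene Apoa4. It was at 351, 658 and 387 CPM in WD tumour, above the 68.5 to 296 CPM of RD no tumour and the 122 and 222 CPM of RD tumour (WD tumour minus RD no tumour, log2 fold change 1.39 ± 0.56, edgeR adjusted p = 1.00). Groups without overlap in that direction were found for 6.85% of all genes. Creb3l3 itself overlapped between these groups, and WD tumour 2, with the most Apoa4, had the least Creb3l3 of its group.

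Cytosolic heat shock genes, which HSF1 controls and not the ER sensors, were on the lower side in WD tumour minus RD tumour at unadjusted p under 0.05 for 8 of 12, with a list median of -0.77 against -0.01 over all genes, of which 7.56% reached that p in either direction. In the gates fewer did: 1 of 12 in the hepatocyte gate (8.65% of all genes; list median -0.63), 4 of 10 tested in the endothelial gate (10.2%), 2 of 10 in the stellate/fibroblast gate (7.41%) and 2 of 10 in the macrophage gate (8.26%). Hspb1 was at 18.1 and 19.0 CPM in RD tumour, 8.80, 3.38 and 5.001 CPM in WD tumour and 3.16, 7.55 and 1.96 CPM in RD no tumour. The summed level of the 12 genes was 1400 and 1260 CPM in RD tumour, 929, 673 and 833 CPM in WD tumour and 719, 1220 and 668 CPM in RD no tumour, so RD no tumour 2 was near the RD tumour mice. Between the reversal groups, 4 of the 12 were higher in RD tumour at unadjusted p under 0.05 (6.7% of all genes in either direction). The reversal groups did not overlap, with RD tumour higher, for 6 of the 12 and for 10.8% of all genes, and with RD tumour lower for 0 of the 12 and for 5.85%. Immediate early genes, which tissue handling can induce, were summed as a check on Atf3. They reached 1630 CPM in RD tumour 1, 682 CPM in WD tumour 2, 646 CPM in RD no tumour 1, 579 CPM in RD tumour 2 and 374 to 457 CPM in the other 4 mice. The 3 mice with the most Atf3 were thus the 3 with the most immediate early RNA, and whether handling of the tissue had a part in the Atf3 level was not tested. Red cell genes (6) summed to 30300 CPM in WD tumour 2 and to 1190 to 7620 CPM in the others, and their part in the CPM of other genes in that library was not tested.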

How the data were processed

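Single-nucleus RNA-seq of 8 livers was analysed. The authors deposited raw UMI counts per gene and barcode from Cell Ranger 7.0.0, per the file headers and the submitters' processing notes, which name build mm10. Whether intronic reads were counted is not given in the sources used here. The chemistry was Chromium 3′ version 3.1, per the labels' protocols. The files hold no cell types.

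Nuclei with at least 300 genes were kept (79446 of 80575) and gated by 2 distinct markers of a class (3 for hepatocytes); nuclei reaching 2 classes were set aside as mixed. Doublets were not removed in the main analysis. UMI counts were summed per mouse and gate and tested with edgeR 4.0.16 (R 4.3.3; TMM, filterByExpr, quasi-likelihood, Benjamini-Hochberg, 0.05) with all 8 mice in 1 model of the 3 groups. Gates were compared with the mouse as a block where at least 6 mice had at least 20 nuclei. Mice are separate animals. On simulated counts for WD tumour minus RD no tumour (19087 genes), 0% of 2-fold, 11.9% of 4-fold and 69.7% of 16-fold changes were recovered. Depth was 17948627 to 34363108 UMIs per library; intervals and floors cover counting error only.

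The genes, lists and markers were chosen with earlier results of these data known. All 10 genes are named; from each pathway list, at most 3 genes per contrast with the largest log2 fold change at unadjusted p under 0.05. Alternatives were DESeq2 1.42.0, RLE factors, no low-count filter, 1 mouse left out, a replicate block, 2 groups per fit, 500 genes per nucleus, mitochondrial genes or nuclei left out, Scrublet doublets (scanpy 1.11.5) left out, acinar-gated nuclei left out and stricter gates. The contrast of WD tumour with both reversal groups was added after seeing the data.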

Additional observations from a re-analysis of the deposited data

How the results depend on the processing

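DESeq2 called more genes than edgeR, which called 0 in every group contrast. For WD tumour minus RD no tumour, RD tumour minus RD no tumour and WD tumour minus RD tumour, DESeq2 called 36, 67 and 109 genes in the whole library, 72, 515 and 98 in the hepatocyte gate, 9, 39 and 42 in the endothelial gate, 15, 8 and 18 in the stellate/fibroblast gate and 11, 49 and 39 in the macrophage gate. It called 1 of the 10 genes in 3 of these: Atf3 (hepatocyte gate, RD tumour minus RD no tumour, log2 fold change 3.72, adjusted p = 0.0255) and Asns (endothelial gate, both WD tumour contrasts). Without a low-count filter, the macrophage gate gave 1 called gene for RD tumour minus RD no tumour, and of the 10 genes 6 were lower in the B gate and 1 in the neutrophil gate. The cause was not tested. Signs near 0 turned for Hsp90b1 in WD tumour minus RD tumour (0.004 without a filter, 0.012 without acinar-gated nuclei) and for Asns in the hepatocyte gate between reversal groups (0.168 with 1 more gate marker). Deviations of same-numbered mice correlated at -0.531 to 0.439, and those of other pairs at -0.528 to 0.653. The RD tumour mice mirror each other in this check (0.439 and -0.439 with RD no tumour 1). It therefore cannot tell whether equal numbers share a batch. With the replicate block, 0 genes were called in each whole-library contrast, and Trib3 in RD tumour minus RD no tumour stood at 0.242.

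Leaving out 1 mouse changed counts mainly through RD tumour 2, without which RD tumour 1 stands alone and is assumed to vary like the other groups. Genes called in RD tumour minus RD no tumour and WD tumour minus RD tumour then ran from 0 to 4569 and 0 to 4438 (whole library), 0 to 5134 and 0 to 4074 (hepatocyte), 0 to 3547 and 0 to 3453 (endothelial), 0 to 1736 and 0 to 1767 (stellate/fibroblast) and 0 to 1717 and 0 to 1377 (macrophage). Of the 10 genes, in the same order, 0 to 3 and 0 to 2, 0 to 2 and 0 to 3, 0 to 2 and 0 to 3, 0 to 2 and 0 to 3, and 0 to 3 and 0 to 1 were called. The stellate/fibroblast gate gave 0 to 2 genes for WD tumour minus RD no tumour, the highest without RD no tumour 1. Genes of the 10 lower than in the hepatocyte gate numbered 2 to 4 (cholangiocyte), 2 to 4 (endothelial) and 3 to 7 (stellate/fibroblast).

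With 1 mouse left out, log2 fold changes for RD tumour minus RD no tumour ran from -0.394 to 0.64 for Asns (hepatocyte gate -0.24 to 0.388), -2.859 to 0.045 for Creb3l3, -0.461 to 0.247 for Hspa5, -1.161 to 0.531 for Trib3, 0.146 to 4.449 for Atf3 (hepatocyte gate 0.828 to 4.525) and 0.208 to 1.021 for Atf4. For WD tumour minus RD no tumour they ran from -0.332 to 0.217 for Ddit3, -0.221 to 0.557 for Herpud1, -0.474 to 0.077 for Hspa5, -0.348 to 1.343 for Trib3 and -0.362 to 0.14 for Xbp1. For WD tumour minus RD tumour they ran from -2.888 to 1.15 for Atf3 (hepatocyte gate -2.954 to 0.732), -1.38 to -0.567 for Atf4 (hepatocyte gate -0.871 to -0.491), -0.636 to 2.268 for Creb3l3, -0.154 to 0.188 for Hsp90b1, -0.445 to 0.207 for Hspa5 and -0.029 to 0.273 for Xbp1. Asns in WD tumour kept its sign in these fits, from -4.795 to -2.561 against RD no tumour and from -4.996 to -2.618 against RD tumour, the lowest without WD tumour 2. In gates, counts of 0 to 30 Asns UMIs in WD tumour mice limit its precision.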

Other observations

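The 810 acinar-gated nuclei of RD tumour 2 were part of its whole library but of no gate compared above. Summed acinar markers (17 genes) were at 594 CPM in that library and at 3.99 to 10.2 CPM in the other 7.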
